A study of Polistes dominula with 96 samples.

Results

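A set of 5 genes of hydrocarbon and wax synthesis was followed through the brains of the paper wasp *Polistes dominula*. They were 2 elongases of fatty acids, bond (LOC107071066) and LOC107072906, 2 fatty acyl-CoA reductases, LOC107070407 and LOC107065778, and the P450 oxidase Cyp4g15 (LOC107068601). They are 5 of the 11140 genes in the count table. They were picked by name with results of these data known, among them the difference between queens and control workers. The levels in those 2 groups are therefore given as a description, with no test. All 5 were among the 10794 genes that passed the filter on low counts.

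Insects cover their cuticle with long hydrocarbons and wax esters that hold back water loss and carry scent. The chains start as fatty acids made by fatty acid synthase. Elongases lengthen them, fatty acyl-CoA reductases turn them into alcohols and aldehydes, and P450 enzymes of the 4g family cut aldehydes to hydrocarbons. In *Drosophila* much of this takes place in oenocytes, cells that lie under the cuticle of the abdomen. In paper wasps the blend on the cuticle is known to differ with rank and fertility.

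Brain RNA of 96 females was sequenced, 1 library per wasp. The 26 queens were foundresses that had overwintered, each from a nest of her own. Control nests gave 14 of them, and the other 12 had been taken out of queen removal nests on the day of removal. The 12 control workers came from 12 nests that kept their queen, and were 1 to 23 days old (median 11.5). Control nests had a sham removal and were followed for 3 or 12 days after it, and their workers form 1 group here. The 58 queen removal individuals were females of nests whose queen had been taken away. Of these, 24 were sampled at day 3, from 8 nests and aged 3 to 33 days (median 13.0), and 34 at day 12, from 10 nests and aged 3 to 28 days (median 18.5). Wasps of a nest share their colony. All nests had been moved to the laboratory and their subordinate foundresses removed. Control workers were chosen at random, whereas queen removal individuals were chosen to span the range of ovary size, dominance and queenness, so their mean level is not that of an average nestmate. The labels give no age for queens.

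Libraries held 7933671 to 18124755 counts. Queens had fewer (median 10437136) than the other groups, whose medians lay between 13212068 and 13377402. Levels are counts scaled to an equal library size (CPM), with the TMM method of edgeR. No gene length was at hand, so levels are compared between wasps and never between genes. In a brain dissected whole, a higher level of a gene per cell and more cells of a type that uses the gene cannot be told apart. Markers of neurons were counted in every wasp, at a summed level of 886 to 2538 CPM. Markers of muscle, photoreceptors, fat body, glands and cuticle were counted too.

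The elongase bond is named after a *Drosophila* gene that is needed for cell division in the testis. It had 0.344 CPM in the lowest queen, 3.20 in the median queen and 30.9 in the highest, which was queen 2. Control workers had 0 to 1.35 CPM with a median of 0.470, equal to 0 to 18 counts per library, and 2 of them had no count. No control worker reached the level of 18 of 26 queens, of 7 of 24 wasps at day 3 or of 16 of 34 at day 12. Medians were 0.879 CPM at day 3 and 1.15 at day 12. The order of medians was thus queens, day 12, day 3 and control workers, with overlap between each pair of neighbours.

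The elongase LOC107072906 was counted in every wasp, with at least 17 counts per library. Queens had 1.69 to 189 CPM (median 36.3) and control workers 1.27 to 20.0 CPM (median 8.45). The level exceeded that of every control worker in 19 of 26 queens. It did so in 5 of 24 wasps at day 3 (3.16 to 167 CPM, median 11.1) and in 21 of 34 at day 12 (2.63 to 229 CPM, median 24.0). The highest value of all 96 wasps was thus found in a wasp of day 12, replicate 27, and not in a queen.

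The reductase LOC107070407, whose product is annotated as similar to *Drosophila* CG5065, followed the same order of groups. Medians were 50.6 CPM in queens (3.38 to 357), 36.4 at day 12 (4.35 to 282), 22.0 at day 3 (6.03 to 367) and 16.1 in control workers (0.749 to 42.5). Of the queens, 16 of 26 lay above the highest control worker, against 4 of 24 wasps at day 3 and 14 of 34 at day 12. A wasp of day 3, replicate 8, had the highest level of the 96, slightly above the highest queen.

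LOC107065778, the other reductase (fatty acyl-CoA reductase 1-like), had another order. Its median was highest at day 12, at 16.9 CPM (2.7 to 141), then in queens at 9.98 CPM (0.564 to 272). Day 3 (1.14 to 22.1 CPM, median 4.33) and control workers (0 to 39.8 CPM, median 4.28) had like medians. Control workers 3 and 6 stood at 39.8 and 32.5 CPM and the other 10 at 8.92 CPM or less. No wasp of day 3 lay above the highest control worker, while 5 queens and 6 wasps of day 12 did.

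Cyp4g15 varied most widely among wasps of a group. Queens ran from 0.294 to 1629 CPM around a median of 6.33, and queen 10 alone held 51% of the summed CPM of all 26 queens. Queens 10, 15 and 4 held 78.8% of it. Control workers had 0 to 10.7 CPM (median 0.457), where control worker 10 alone held 52.2% of the summed CPM. Medians were 1.92 CPM at day 3 (0 to 95.1) and 2.30 at day 12 (0 to 171).

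**Figure D1:**
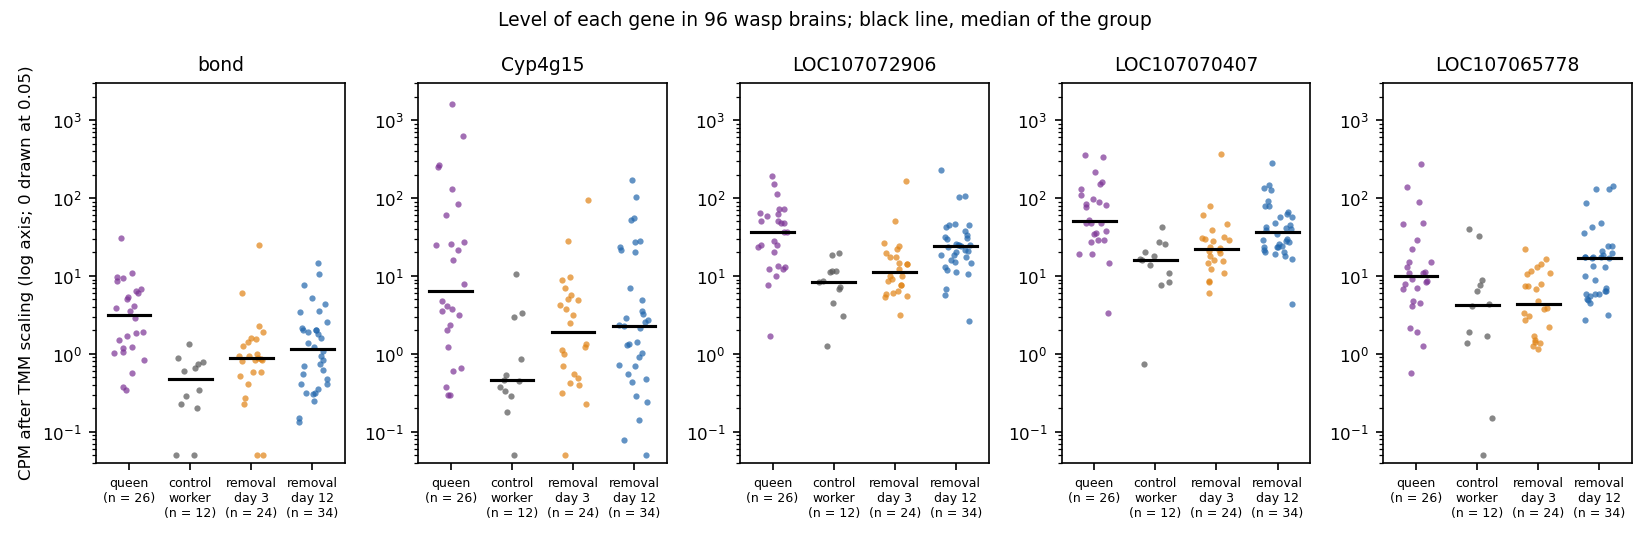
Level of each of the 5 genes in CPM (log axis) in 26 queens, 12 control workers, 24 queen removal individuals at day 3 and 34 at day 12; each point is a wasp, black lines are group medians and a level of 0 is drawn at 0.05. For bond, LOC107072906 and LOC107070407 the medians fall in the order queens, day 12, day 3, control workers, and Cyp4g15 queens spread from 0.294 to 1629 CPM.

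As a log2 difference of queens from control workers in the edgeR fit, these levels came to 6.11 for Cyp4g15 (SE 1.26), 3.26 for bond (SE 0.70), 2.38 for LOC107070407 (SE 0.51), 2.35 for LOC107072906 (SE 0.51) and 1.74 for LOC107065778 (SE 0.64). The differences rest in part on single queens. Without queen 10, the value of Cyp4g15 was 5.15, and without queen 5, that of LOC107065778 was 1.19. With only the 12 queens of queen removal nests, all 5 differences were again positive, between 1.46 and 5.30.

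High levels of several genes were found in the same queens. The genes were picked with queens and control workers in view, so these counts are a description. How many wasps the counts of single genes alone would give was not computed. Of bond, Cyp4g15, LOC107072906 and LOC107070407, all 4 lay above the highest control worker in 7 of 26 queens, 3 of them did in 9 further queens, and none did in 2. The count of wasps with all 4 was 2 of 24 at day 3 and 6 of 34 at day 12. At day 3, 15 of 24 wasps had none, and at day 12, 9 of 34 had none. With LOC107065778 added, all 5 genes lay above the highest control worker in 2 of 26 queens, 0 of 24 wasps at day 3 and 1 of 34 at day 12. High levels of these genes were thus found together in some queen removal individuals while other wasps stayed in the range of control workers.

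Loss of the queen was examined by comparing queen removal individuals with control workers, the same control workers that entered the choice of the genes. In edgeR's quasi-likelihood fit of all 4 groups, none of the 5 genes passed an adjusted p of 0.05, where 0.278% of all genes did. Without adjustment, 4 of the 5 had p under 0.05, as did 15.6% of all genes, and DESeq2 called those 4 at its adjusted threshold, where it called 1.46% of all genes. The log2 differences were 2.64 for Cyp4g15 (SE 1.05, adjusted p = 0.200), 2.10 for bond (SE 0.64, adjusted p = 0.0901), 1.48 for LOC107072906 (SE 0.46, adjusted p = 0.0931), 1.43 for LOC107070407 (SE 0.46, adjusted p = 0.104) and 0.58 for LOC107065778 (SE 0.57, adjusted p = 0.661). With the ovarian index as a covariate among workers, the values of bond, LOC107072906 and LOC107070407 were 1.05, 0.49 and 0.67. Each day was also set against all 12 control workers, who were not split by day of sampling. At day 12, LOC107072906 passed (log2 difference 1.85, SE 0.48, adjusted p = 0.0468 by edgeR), where 0.51% of all genes did. The call was lost without its highest wasp, day 12 replicate 27 (1.57, adjusted p = 0.0742), and with nest as a random effect in limma voom (1.70, adjusted p = 0.186). With ovarian index as a covariate it was 0.79 (adjusted p = 0.327), and with age 1.59 (adjusted p = 0.0647). At day 3 none passed (0.0926% of all genes), 3 had an unadjusted p under 0.05, as did 15% of all genes, and DESeq2 called none (0.698% of all genes), with bond just above its threshold. These 3 values depended on day 3 replicate 8. Without this wasp bond went from 2.05 to 1.13, LOC107070407 from 1.21 to 0.58 and LOC107072906 from 1.11 to 0.57. None of these 3 then had an unadjusted p under 0.05 by edgeR. With age as a covariate and all wasps kept, none of the 5 had an unadjusted p under 0.05.

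Summed levels of muscle and cuticle markers differed in median in this comparison, in opposite directions. Over 13 muscle genes the summed level had a median of 9729 CPM in control workers (1877 to 17703), against 16943 at day 3 (3894 to 43855) and 15289 at day 12 (4547 to 58990). Over 23 cuticle genes the median was 758 CPM in control workers, against 570 at day 3 and 602 at day 12. Queens had medians of 16848 CPM for muscle, 461 for cuticle and 1978 for glia, the last against 2641 in control workers. Ranges overlapped, and the part of these tissues in the differences of the 5 genes was not tested. Within queen removal individuals, Pearson's r of the summed muscle level with the 5 genes lay between -0.10 and 0.20, given as a description over 58 wasps.

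Among the 58 queen removal individuals, 4 of the 5 genes rose with the ovarian index, a measure of how far the ovaries had developed. The index was taken from the study's table, scaled to its SD and fitted with day as a covariate. LOC107072906 rose by a log2 value of 0.85 per SD (SE 0.12, adjusted p = 6.08e-06), bond by 1.03 (SE 0.19, adjusted p = 0.000706), LOC107070407 by 0.72 (SE 0.13, adjusted p = 0.00075) and Cyp4g15 by 1.17 (SE 0.27, adjusted p = 0.0234), all by edgeR. Of all genes, 0.269% passed, and 0.185% passed upward. By p, the 4 genes ranked 6, 12, 13 and 22 of 10794. LOC107065778 had a slope of -0.05 (SE 0.19, adjusted p = 0.963).

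In levels, the 20 wasps of largest ovarian index had 14.4 to 229 CPM of LOC107072906 (median 31.8), against 2.63 to 31.7 CPM (median 11.8) in the 19 of smallest index. For bond these ranges were 0.408 to 24.8 CPM (median 2.04) and 0 to 2.59 (median 0.556). For LOC107070407 they were 19.0 to 367 CPM (median 51.3) and 4.35 to 90.5 (median 24.6). The ranges overlapped for each gene. Medians of the middle 19 wasps, at 14.8, 0.825 and 20.7 CPM, lay nearer to those of the 19 lowest wasps than to those of the 20 highest. For Cyp4g15 the medians of the lowest 19, middle 19 and highest 20 wasps were 1.21, 2.53 and 3.90 CPM, and the highest of the last set had 171 CPM.

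**Figure D2:**
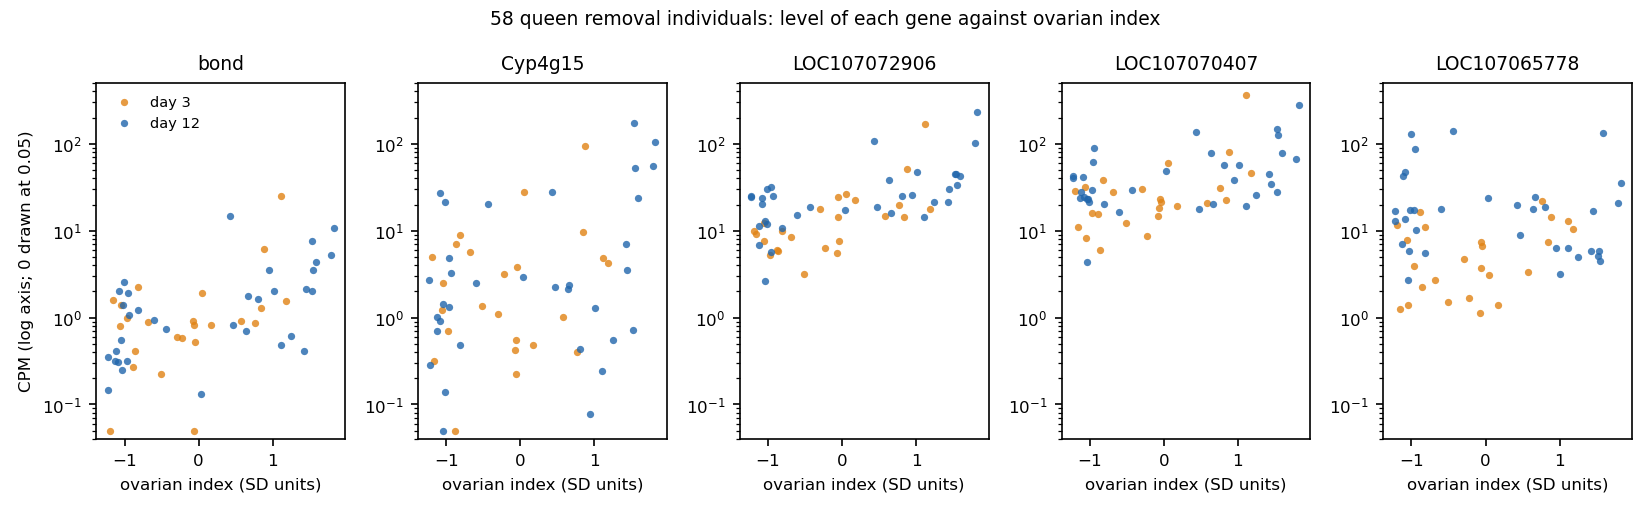
Level of each of the 5 genes in CPM (log axis, 0 drawn at 0.05) against the ovarian index in SD units from its mean, in 58 queen removal individuals at day 3 (orange) and day 12 (blue); each point is a wasp. LOC107072906 and LOC107070407 climb with the index, at slopes of 0.85 and 0.72 log2 per SD, and LOC107065778 has a slope of -0.05.

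The calls on ovarian index held for LOC107072906, bond and LOC107070407 with nest as a fixed block (adjusted p = 2.18e-05, 0.00264 and 0.0115) and without day 3 replicate 8, whose levels were extreme (3.88e-05, 0.0117 and 0.00653). That of Cyp4g15 was lost with nest as a block (1.44, adjusted p = 0.0626) or as a random effect (adjusted p = 0.174), and without its highest wasp, day 12 replicate 25 (0.99, adjusted p = 0.0892). With age as a further covariate, LOC107072906 and LOC107070407 kept their calls (0.85 and 0.68, adjusted p = 0.000123 and 0.0235) and bond did not (0.84, adjusted p = 0.0533). Age and ovarian index were correlated within day (r = 0.42).

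The Elo score, a rating of dominance from contests between nestmates, gave a like picture. LOC107072906 rose by 0.74 per SD (SE 0.10, adjusted p = 3.51e-06), bond by 0.98 (SE 0.14, adjusted p = 1.38e-05) and LOC107070407 by 0.67 (SE 0.11, adjusted p = 6.08e-05), where 0.176% of all genes passed and 0.167% passed upward. They ranked 3, 5 and 6 of 10794 by p. Cyp4g15 had the steepest slope but also the largest error (1.28, SE 0.33, adjusted p = 0.106), and DESeq2 called it (adjusted p = 0.00359, with 0.195% of all genes called). The calls depend in part on day 3 replicate 8, with 24.8 CPM of bond, 167 of LOC107072906 and 367 of LOC107070407. Without this wasp, LOC107072906 kept its call (0.61, adjusted p = 0.00801), while bond (0.79, adjusted p = 0.0834) and LOC107070407 (0.47, adjusted p = 0.163) did not, and 2 genes passed in all against 19 with it.

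Queenness is the study's score of how queen-like a wasp was in ovaries and behaviour, so it is no measure apart from ovarian index and Elo score. Its slopes were 0.92 for LOC107072906 (SE 0.11, adjusted p = 3.67e-08), 1.16 for bond (SE 0.15, adjusted p = 1.39e-06), 0.80 for LOC107070407 (SE 0.11, adjusted p = 2.21e-06) and 1.20 for Cyp4g15 (SE 0.24, adjusted p = 0.00411), by edgeR. LOC107065778 had 0.00 (SE 0.17, adjusted p = 0.999). Of all genes 0.454% passed, with 0.278% upward, and by p the 4 genes ranked 2, 3, 8 and 19. All 4 calls held without day 3 replicate 8, and with nest as a block that of Cyp4g15 was lost (1.37, adjusted p = 0.0622) while the other 3 held. When ovarian index and Elo score were fitted together, none of the 5 passed on either, where 24 and 6 of all 10794 genes did. LOC107072906 had slopes of 0.52 and 0.49 (adjusted p = 0.0936 and 0.101, unadjusted p = 0.000304 and 8.39e-05, by edgeR).

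**Figure D3:**
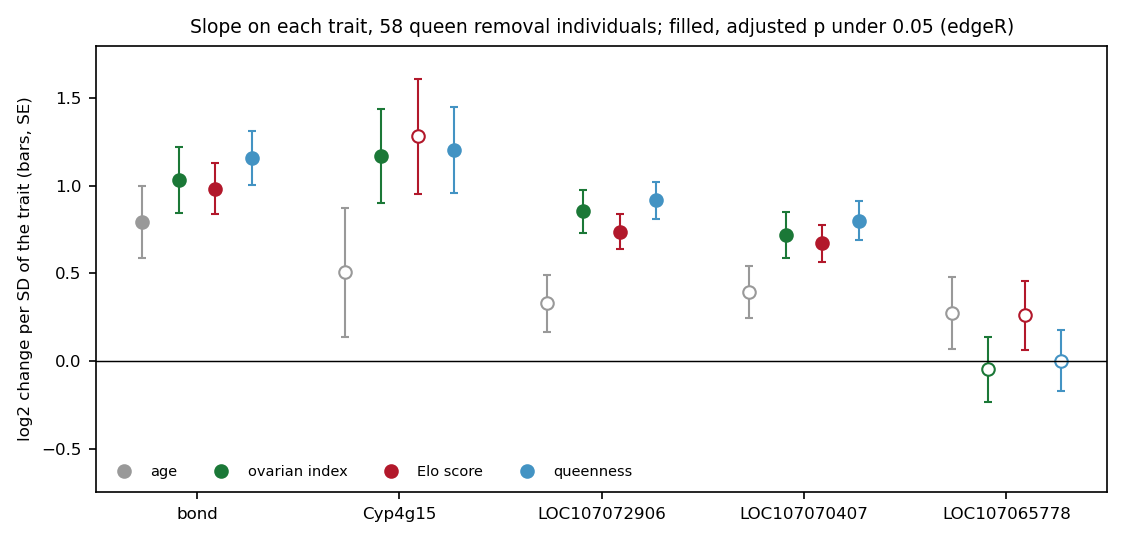
Slope of each gene on age, ovarian index, Elo score and queenness in 58 queen removal individuals, as a log2 change per SD of the trait from edgeR fits with day as a covariate; bars are SE and filled points have an adjusted p under 0.05. The first 4 genes have slopes of 0.67 to 1.28 on ovarian index, Elo score and queenness, and LOC107065778 lies near 0 on ovarian index and queenness.

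Within nests, the highest level was often found in the wasp of highest queenness. In 15 queen removal nests with 2 to 5 sequenced wasps each, 55 wasps in all, the wasp of highest queenness had the highest level of LOC107072906 in 13 nests and of LOC107070407 in 13 nests. Of all 10794 genes, 0.13% did so in 13 or more nests. For bond it was 11 nests (0.25% of all genes reached as many), for Cyp4g15 9 nests (1.81%) and for LOC107065778 5 nests (43.7%), while the median over all genes was 4. With the largest ovarian index in place of queenness, the counts were 12 nests for LOC107072906 and for LOC107070407 (0.139% of all genes reached as many), 11 for bond (0.259%), 9 for Cyp4g15 (2.27%) and 4 for LOC107065778 (63.6%).

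The gap within a nest could be wide. In nest 65, sampled at day 12, the wasp of highest queenness had 229 CPM of LOC107072906 and her 3 nestmates 15.8, 24.2 and 31.7 CPM. The same wasp had 282 CPM of LOC107070407 and 104 CPM of Cyp4g15, and no nestmate exceeded 61.9 and 2.74 CPM. In nest 67, also of day 12, the wasp of highest queenness had 14.8 CPM of bond and her 3 nestmates 0.307 to 0.354 CPM. In nest 47, of day 3, that wasp was replicate 8, with 367 CPM of LOC107070407 against 8.71 to 60.1 CPM in the other 4. Gaps were small in other nests. In nest 14, of day 12, the wasp of highest queenness had 27.8 CPM of LOC107070407 and her nestmates 21.5 and 24.6 CPM. Nest 69, of day 3, was an exception, where she had 19.4 CPM of LOC107070407 and a nestmate 30.1 CPM.

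**Figure D4:**
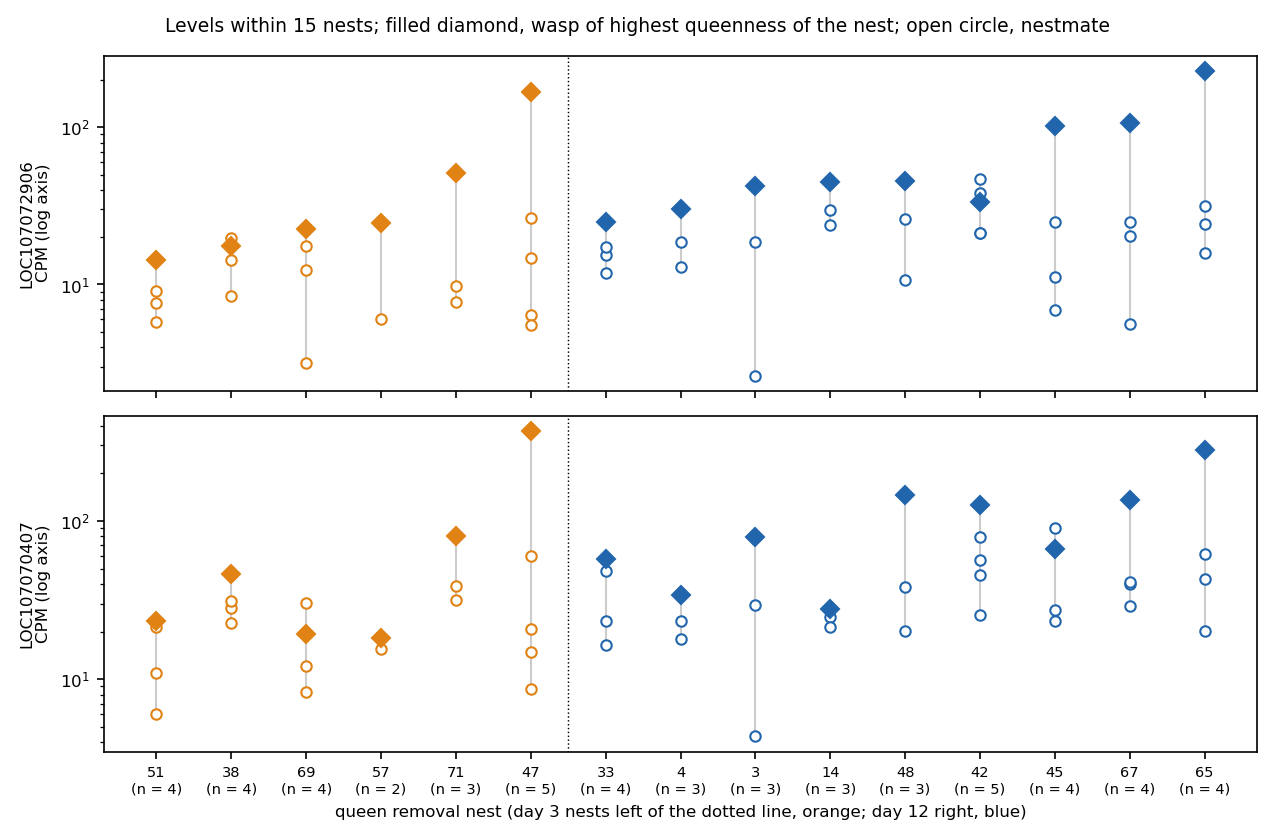
Levels of LOC107072906 (top) and LOC107070407 (bottom) in CPM (log axis) in the 15 queen removal nests with 2 or more sequenced wasps, 6 of day 3 (orange) and 9 of day 12 (blue), ordered within each day by the highest level of LOC107072906; the filled diamond is the wasp of highest queenness and open circles are her nestmates. The diamond is at the top in 13 of 15 nests for each gene.

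The reductase LOC107065778 differed between days. It was higher at day 12 than at day 3 by a log2 value of 2.04 (SE 0.48, adjusted p = 0.0311 by edgeR), at rank 18 of 10794, where 0.287% of all genes passed. Day 12 ran from 2.7 to 141 CPM (median 16.9) and day 3 from 1.14 to 22.1 CPM (median 4.33), so the lower part of day 12 overlapped with day 3. The wasps came from 8 nests at day 3 and 10 at day 12, and the call was lost with nest as a random effect (1.54, adjusted p = 0.708). It was also lost without day 12 replicate 1 (1.84, adjusted p = 0.0689). The other 4 genes did not pass (log2 differences of 0.10 to 1.06, adjusted p of 0.426 to 0.967). For bond and LOC107070407 the difference turned on day 3 replicate 8. Without this wasp it was 1.01 for bond (adjusted p = 0.278, against 0.10 with it) and 1.06 for LOC107070407 (adjusted p = 0.110, against 0.42). A permutation test of mean ranks gives no single wasp much weight (100000 two-sided permutations, not adjusted over the 5 genes and not run over all genes). It shuffled wasps without regard to nest, so nestmates counted as independent although they shared their day. Its p was 0.00013 for LOC107065778, 0.00143 for LOC107072906, 0.00951 for LOC107070407, 0.380 for bond and 0.694 for Cyp4g15. With nest as a random effect in limma voom, LOC107072906 and LOC107070407 had an adjusted p of 0.794 and 0.873.

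Levels of LOC107065778 varied between nests. In an F test of nest within day, over the 55 wasps, it was the only one of the 5 to pass (adjusted p = 0.00305 by edgeR), where 16.3% of all genes passed. DESeq2 called 4 of the 5 in the same test, where it called 30.4% of all genes, with LOC107072906 as the exception (adjusted p = 0.245). In nest 14, of day 12, levels of LOC107065778 were 130, 47.9 and 5.08 CPM, and the lowest was the wasp of highest queenness. In nest 3, of day 12, levels were 141, 131 and 5.83 CPM. In nest 48, of day 12, the 3 wasps had 5.61 to 6.33 CPM. Nests 3 and 14 thus held both very high and low wasps.

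Age was examined next. Among queen removal individuals, only bond passed (0.79 per SD of age, SE 0.21, adjusted p = 0.00757 by edgeR), where 8.23% of all genes passed. The call was lost without day 3 replicate 8 (0.40, adjusted p = 0.297), with ovarian index as a further covariate (0.45, adjusted p = 0.232) and with nest as a block (0.97, adjusted p = 0.0922), and held with nest as a random effect (0.82, adjusted p = 0.0178). LOC107072906 passed with age only when day 12 replicate 27 was left out (0.47, adjusted p = 0.0232, against 0.33 and 0.227 with it). Among the 12 control workers none of the 5 passed by edgeR, where 0.649% of all genes did. None of the 5 had an unadjusted p under 0.05, where 1606 of all 10794 genes did. DESeq2 gave bond no adjusted p and called none of the others, where it called 404 of 9740 genes. Slopes on age, ovarian index and Elo score were set against each other between day 12 and day 3, and none of these differences passed for any of the 5 genes (adjusted p of 0.161 or more by edgeR). Of all genes, 0.0649% passed on age, 0.111% on ovarian index and 0% on Elo score. Slopes of LOC107070407 and LOC107072906 were lower at day 12 on age (-0.88 and -0.80) and ovarian index (-0.65 and -0.64). That of Cyp4g15 was higher at day 12 on Elo score (1.73). Each had an unadjusted p under 0.05 by edgeR, as did 1504, 454 and 303 of all 10794 genes on the 3 traits. Slopes on ovarian index in the 12 control workers did not pass for any of the 5 either (-1.09 to 0.65 per SD, adjusted p of 0.495 or more, 0.00926% of all genes).

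The ovarian index was fitted in the 26 queens as well. Slopes per SD were -0.82 for Cyp4g15 (SE 0.41), -0.43 for LOC107072906 (SE 0.21), -0.22 for LOC107070407 (SE 0.23), -0.17 for bond (SE 0.32) and 0.35 for LOC107065778 (SE 0.41). None passed by edgeR (adjusted p of 0.489 or more, 0.361% of all genes) and 1 had an unadjusted p under 0.05, as did 1101 of all 10794 genes. The difference of slopes, queens minus queen removal individuals, was tested itself and did not pass for LOC107072906 (-2.34 per SD over both groups, SE 0.62, adjusted p = 0.0511) or Cyp4g15 (-3.98, SE 1.14, adjusted p = 0.0882), where 0.547% of all genes passed. Queens taken from queen removal nests were not shown to differ from queens of control nests in any of the 5 genes (adjusted p of 0.668 or more by edgeR). No gene in the table passed that comparison (0%), with 868 at an unadjusted p under 0.05 and none by DESeq2.

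The 5 genes were compared in pairs within groups, on log2 CPM with a prior count of 2, by Pearson's r and Spearman's rho with 100000 two-sided permutations each. The 10 pairs in 3 groups made 30 relations, over which p-values were adjusted. The elongase LOC107072906 and the reductase LOC107070407 formed the closest pair. In queens r was 0.92 (rho = 0.89, adjusted permutation p = 7.5e-05 and 0.0001), and r was 0.86 without the 2 queens farthest from the median of LOC107072906. In queen removal individuals, as deviations from the mean of the day, r was 0.81 (rho = 0.71, same adjusted p-values) and 0.72 without 2 wasps. The unadjusted p of both was 1e-05, the smallest these permutations can give. Within nests r was 0.84. In control workers r was 0.74 (rho = 0.48, adjusted permutation p = 0.0297 and 0.174), but fell to 0.06 without 2 wasps, and so rests on these. Control worker 1 had the lowest level of both, 1.27 and 0.749 CPM.

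Of the 10 pairs, 6 passed in queens by Pearson's r and 5 by Spearman's rho. In queen removal individuals these counts were 8 and 7, and in control workers 2 and 0. As deviations from the nest mean, 9 of the 10 pairs passed by Pearson's r in queen removal individuals, adjusted over these 10. Cyp4g15 was related to LOC107072906 in queens (r = 0.71, rho = 0.65, adjusted permutation p = 0.000188 and 0.00225, and r = 0.62 without 2 queens) and in queen removal individuals (r = 0.52, rho = 0.39, adjusted permutation p = 0.000188 and 0.00687, and r = 0.47 without 2 wasps). After queen removal bond was related to LOC107072906 (r = 0.71, rho = 0.60, adjusted permutation p = 7.5e-05 and 0.0001, and r = 0.61 without 2 wasps). In queens that pair had an r of 0.39 and did not pass (rho = 0.42, adjusted permutation p = 0.0716 and 0.0676). In control workers the sign was the other way and the pair did not pass (r = -0.57, rho = -0.50, adjusted permutation p = 0.0722 and 0.158, and r = -0.23 without 2 wasps). LOC107065778 and LOC107072906 had an r of 0.57 in queens (rho = 0.59, adjusted permutation p = 0.00638 and 0.00647, and r = 0.41 without 2 queens) and of 0.26 after queen removal (rho = 0.20, adjusted permutation p = 0.0722 and 0.196). As deviations from the nest mean, that pair did pass after queen removal (r = 0.37, adjusted permutation p = 0.0234). Whether r differed between groups was not tested.

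**Figure D5:**
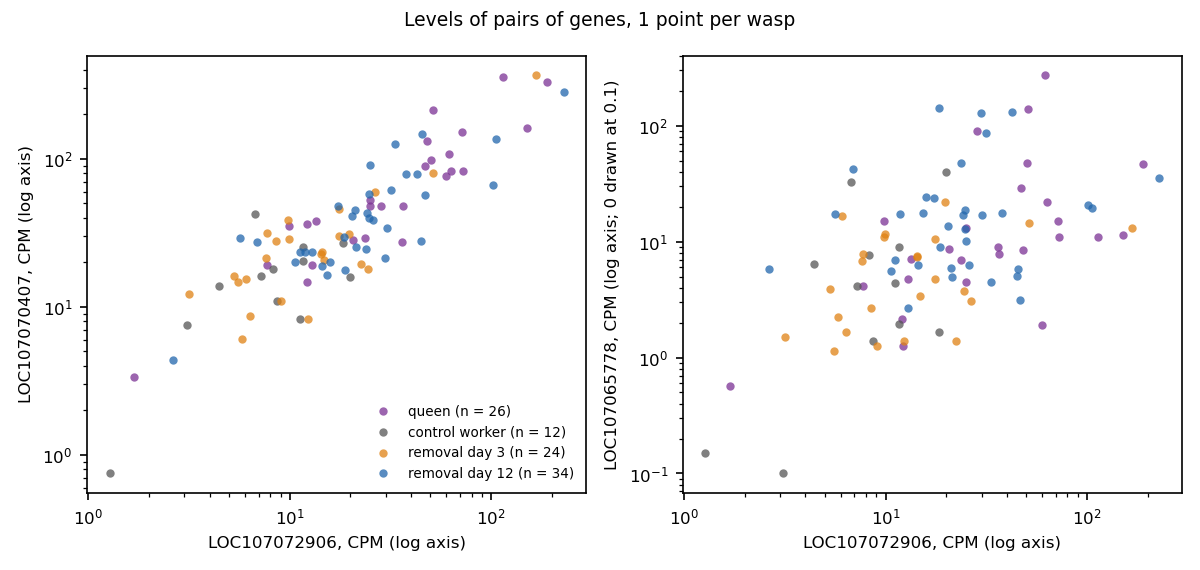
Level of LOC107070407 (left) and of LOC107065778 (right, 0 drawn at 0.1) against LOC107072906, in CPM on log axes, with 1 point per wasp and colours for the 4 groups. The left pair has an r of 0.92 in queens and 0.81 in queen removal individuals, while in control workers it rests on 2 wasps, and the right pair has an r of 0.57 and 0.26 in the first 2 of these.

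The genes most like each member were ranked by Pearson's r over the 96 wasps with group means removed, among 9713 other genes with a mean of 1 CPM or more. These values are a description, and points share nests and depth. LOC107072906 and LOC107070407 were each other's first (r = 0.84). LOC107071643, annotated as a fatty-acid amide hydrolase, was among the first 5 of LOC107072906, LOC107070407 and LOC107065778 (r = 0.77, 0.77 and 0.61). LOC107067353, an uncharacterized protein, came first for both bond and Cyp4g15 (r = 0.60 each). The list of Cyp4g15 also held Zw (r = 0.55), which in *Drosophila* encodes glucose-6-phosphate dehydrogenase, a source of NADPH for lipid synthesis. That of LOC107070407 held gbb (r = 0.76), a growth factor of the BMP type in *Drosophila*, and the retinaldehyde-binding protein gene LOC107066073 (r = 0.78).

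The gene closest to LOC107065778 was a further fatty acyl-CoA reductase 1-like gene, LOC107073673, at r = 0.91, and r was 0.92 in queens, 0.91 in control workers, 0.87 at day 3 and 0.94 at day 12. Its medians were 1.85 CPM in queens, 0.421 in control workers, 0.755 at day 3 and 2.29 at day 12, the same order of groups at the top. Whether reads of the one gene were counted for the other was not tested. LOC107068658, also annotated as fatty acyl-CoA reductase 1-like, was among the first 5 too (r = 0.59). That list also held LOC107065866 (r = 0.59), which is annotated as grindelwald, a receptor of tumour necrosis factor in *Drosophila*.

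The wider pathway held 35 further genes, namely synthases, elongases, desaturases, reductases and their helpers. Most of them are known by the product names of the study's tables, which list genes chosen on these same samples, so counts over this list are no independent evidence. None of the 35 passed by edgeR with ovarian index, Elo score or queenness among queen removal individuals, where 0.269%, 0.176% and 0.454% of all genes did. At an unadjusted p under 0.05 there were 7, 2 and 7 of the 35, beside 1046, 478 and 991 of all 10794 genes. Median log2 slopes of the list were 0.05, 0.04 and 0.06, beside 0.00 over all genes. None passed after queen removal or between days either, where 0.278% and 0.287% of all genes did. List medians were 0.26 and 0.09 beside 0.00. At an unadjusted p under 0.05 there were 7 and 6 of the 35, beside 1680 and 1120 of all 10794 genes. With age, 1 rose and 1 fell (5.71% of the list, where 8.23% of all genes passed). The reductase LOC107071346 rose by 0.12 per SD (adjusted p = 0.0488) and the reductase LOC107065849 fell by 0.54 (adjusted p = 0.0332). Between nests 8 of 35 (22.9%) passed, where 16.3% of all genes did. In the contrast of queens with control workers, 8 of 35 were higher at an adjusted p under 0.05 and none lower, where 11.8% of all genes were higher, given as a description.

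Markers of other tissues were set beside the 4 genes that followed ovarian index. Among queen removal individuals, the summed level of 7 fat body genes, which include vitellogenin and hexamerins, had an r of 0.36 with Cyp4g15, 0.40 with LOC107070407, 0.33 with LOC107072906 and 0.39 with bond, and of 0.37 with the ovarian index itself. The summed level of 4 glia genes had an r of -0.52 with bond, between -0.26 and -0.24 with the other 3, and of -0.35 with the ovarian index. Cuticle markers, 23 genes, had an r between -0.01 and 0.16 with these genes. Gland markers had an r of -0.37 with bond, -0.34 with LOC107072906, -0.22 with Cyp4g15, -0.11 with LOC107070407 and -0.27 with the ovarian index. Photoreceptor markers had an r between 0.02 and 0.17 with these genes and of 0.29 with the ovarian index. Gland and photoreceptor levels were not fitted as covariates. With the fat body level as a further covariate, all 4 kept their calls on ovarian index (adjusted p of 0.000192 for LOC107072906, 0.0161 for bond, 0.0169 for LOC107070407 and 0.0288 for Cyp4g15). In that order their slopes were 0.77, 0.80, 0.56 and 0.96, each lower than without the covariate. That fit called 198 of 10794 genes, against 29 without the covariate, so a call was easier to reach. With the glia level as a further covariate, LOC107072906 kept its call (0.75, adjusted p = 0.00237), and LOC107070407 (0.61, adjusted p = 0.0848), bond (0.61, adjusted p = 0.308) and Cyp4g15 (0.83, adjusted p = 0.444) did not. The glia fit called 19 of 10794 genes on ovarian index, and 16 on queenness. With queenness in place of ovarian index and the glia level kept, LOC107072906, LOC107070407 and bond passed (adjusted p = 3.58e-05, 0.00129 and 0.0174) and Cyp4g15 did not (0.91, adjusted p = 0.366).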

How the data were processed

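Brains of single wasps were sequenced. Before deposit, the authors filtered out ribosomal reads (SortMeRNA), trimmed the rest (Trimmomatic, version 0.36 in the submitters' processing notes and another in the study's reporting form), aligned these to annotated transcripts (STAR 2.7) and quantified genes (StringTie2). Deposited were raw counts, whole numbers without normalization. Of 11335 entries, 1 had no gene name (0.0216% to 0.0706% of a library) and was left out, and 194 repeats of an ID were summed. A gene was kept if its counts in any group summed to above 20. No library was a copy of another (highest correlation 0.980).

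Fits used edgeR 4.0.16 (TMM, quasi-likelihood test, Benjamini-Hochberg adjustment over all 10794 genes, threshold 0.05) in R 4.3.3. Groups shared 1 fit of 96 wasps, and slopes were fitted per SD within a group, with day as a covariate after queen removal. Alternatives were DESeq2 1.42.0, voom of limma 3.58.1 where nest was a random effect, other scaling and filters, further covariates, and fits without the highest wasp. Correlations were computed with scipy 1.17.1 and numpy 2.4.6. The functions were tested on simulated counts. Ovarian index, Elo score, queenness and nest of each wasp came from the study's table, and age from the labels. The labelled nest and the study's nest differed for 1 wasp, who was placed by the study's table.

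The members and gene lists were chosen with earlier results of these data known. Named genes were the 5 members, up to 4 pathway genes of smallest p in each direction of a tested comparison, and the 5 genes most like each member. Not every gene of the rule is reported. Gene symbols were looked up in RefSeq's table for assembly Pdom_raw_medaka, which had entries for 10144 of 11140 IDs and symbols for 4064, and product names from the study's tables for 4399.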

Additional observations from a re-analysis of the deposited data

How the results depend on the processing

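Of the values of single genes under alternatives, 295 kept their direction and side of the threshold. A further 34 no longer passed, 18 newly passed and 15 changed sign, none of these 15 past the threshold. The permutation test of mean ranks was counted by its unadjusted p, the fits by an adjusted p. So the 18 mix unlike thresholds. They include that test for bond, Cyp4g15, LOC107072906 and LOC107070407 after queen removal against control workers. Between days they include it for LOC107072906 and LOC107070407. The counts below are those of the 5 genes called, then of all genes called, and causes were not tested.

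After queen removal against control workers, 0 of the 5 were called, and 4 by DESeq2. At day 12 against control workers 1 was called, 4 by DESeq2, and 0 with age, ovarian index or nest as a random effect in the fit, with the replicate block, with the strict filter or without the highest wasp. At day 12 against day 3, 1 was called and 0 with nest as a random effect, with the replicate block or without the highest wasp. With age, 1 was called and 0 with nest as a block, with ovarian index or without day 3 replicate 8. With ovarian index, 4 were called, 2 with age, 1 with the glia level and 0 with the Elo score in the fit. With Elo score, 3 were called, 1 without the highest wasp, 1 without day 3 replicate 8 and 0 with ovarian index in the fit. Between nests 1 was called, and 4 by DESeq2. In control workers 2 pairs were related by Pearson's r and 0 by Spearman's rho.

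Of all genes, queen removal against control workers called 30, and 155 by DESeq2, 262 with age, 16 with ovarian index, 2 with nest as a random effect, 98 with the replicate block and 0 with the strict filter. Day 3 against control workers called 10, and 71 by DESeq2, 208 with age, 0 with nest as a random effect, 16 without a filter, 27 with the replicate block and 0 with the strict filter. Day 12 against control workers called 55, and 205 by DESeq2, 120 with age, 20 with ovarian index, 0 with nest as a random effect, 96 with the replicate block and 1 with the strict filter. Day 12 against day 3 called 31, and 11 with age, 18 with ovarian index, 0 with nest as a random effect, 18 with the replicate block and 11 with the strict filter. Age called 888, and 367 with nest as a block and 580 with ovarian index. Ovarian index called 29, and 64 by DESeq2, 16 with age, 198 with the fat body level, 19 with the glia level and 62 without day 3 replicate 8. Elo score called 19, and 6 with ovarian index, 10 with the fat body level, 7 with the glia level and 2 without day 3 replicate 8. Queenness called 49, and 80 with nest as a block, 302 with the fat body level, 16 with the glia level and 75 without day 3 replicate 8. Age in control workers called 70, and 404 by DESeq2. Nest called 1762, and 3146 by DESeq2.

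Signs changed for LOC107065778 at day 3 against control workers (-0.43, and 0.96 with nest as a random effect, 0.53 with the replicate block and 0.11 without the highest wasp), with ovarian index (0.17 with nest as a block), with queenness (-0.049 with nest as a random effect, -0.0054 and -0.11 with the fat body and glia levels, -0.042 without day 3 replicate 8) and between queens by origin (0.59 by DESeq2 and 0.56 without the highest queen). They changed for Cyp4g15 between days (-0.045) and with age (-0.027) with nest as a random effect, with age in control workers (0.12) and between queens by origin (0.28) without the highest wasp, and for bond between days with ovarian index in the fit (-0.038).

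Replicate numbers only name the wasps. Deviations of same-numbered wasps had correlations of -0.261 to 0.350, so the replicate block is no paired design. The strict filter left bond and Cyp4g15 untested. The marker levels, day 3 replicate 8, nest as a random effect for the traits and the joint fits were added after seeing the data. Low counts limit bond and Cyp4g15, which had no count in some wasps.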
